A study of Mus musculus with 16 samples.

Results

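This report sets the livers of 4 male wild-type C57BL/6J mice fed a high-fat diet (HFD, 45%) with 0.04% fenretinide for 20 weeks (FEN-HFD, mice 21, 22, 24 and 29) beside those of 4 male mice of the same genotype fed the HFD alone for 7 days (mice 142, 143, 144 and 146), which are 8 of the 16 livers sequenced in the study. The other 8 livers came from mice given the HFD for 20 weeks and FEN-HFD for 7 days, 4 of each, and enter only where stated. Members were taken by sample label, and all 23420 genes in the count table were considered. The question was which liver genes were still away from their level after 7 days of HFD when the mice had been on the fat diet with fenretinide for 20 weeks, and which were at that level. Both groups ate the fat diet, and no lean livers are among the 16. The groups differ in fenretinide and in the length of feeding, and neither their ages nor their cohorts are in the labels, so that these cannot be told apart in any difference given here. Each library is 1 mouse.

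Fenretinide is a synthetic retinoid, an amide derived from retinoic acid. Retinoic acid, made from retinol by successive oxidation, binds the nuclear receptors RAR, which pair with RXR on direct repeats of a short half-site in the promoters of target genes. Among the classic targets are the receptor gene Rarb itself and Cyp26a1, whose product breaks retinoic acid down, so that the pathway limits itself. The liver stores most of the body's retinol as esters made by Lrat, mainly in stellate cells. A fat diet given for long leads to triglyceride storage in hepatocytes, with droplet coat proteins and with fatty acid uptake and oxidation genes that PPAR-gamma and PPAR-alpha control.

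Counts assigned to genes came to between 19218230 and 24237124 per FEN-HFD library and to between 25255797 and 32436573 per 7-day HFD library. The library of mouse 29 stood apart. Rn45s, the ribosomal RNA precursor, took 53.1% of its counts and Lars2 took 4.36%, whereas Rn45s took 1.00% to 1.46% in the other FEN-HFD livers and 0.466% to 0.644% in the 7-day livers. The first principal component held 38% of the variance and set mice 29 and 143 apart from the rest of their groups, and the second, with 29.3%, separated the groups. The main comparison was therefore also fitted without mouse 29, whereas the fit of all 16 libraries and the promoter counts below were not. Levels are CPM, read counts divided by the library's total and multiplied up to a common size, with totals scaled by TMM factors, which correct for the share of reads taken by a few genes. CPM are not corrected for gene length, so levels are compared between mice and never between genes.

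Of 12966 genes with enough counts to test, 186 were higher (1.43%) and 71 lower (0.548%) in FEN-HFD livers than in 7-day HFD livers at an adjusted p under 0.05 by edgeR's quasi-likelihood test with Benjamini-Hochberg adjustment. Called below means past that threshold. Log2 fold changes are FEN-HFD at 20 weeks over HFD at 7 days, with their standard errors (SE). Among the called genes, 130 were over 2-fold higher and 27 over 2-fold lower, and 62 and 9 passed 4-fold. All 257 called genes had no overlap between the 4 mice of each group, as had 1004 of all genes tested (7.74%). Without mouse 29 there were 254 higher and 97 lower genes, of which 178 and 62 were also called with it. The 8 higher and 9 lower genes that lost their call included Hamp, Hamp2, Cyp1a2, Rdh9, Fitm1, Cyp4a10 and Gsta2. Their adjusted p without it ran from 0.0521 to 0.0928. The counts fell furthest without mouse 21 (89 higher and 18 lower), and were 99 and 23 with mouse 22 left out, 113 and 26 with mouse 24 left out, 104 and 28 when mouse 142 was dropped and 126 and 35 when mouse 144 was.

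**Figure D1:**
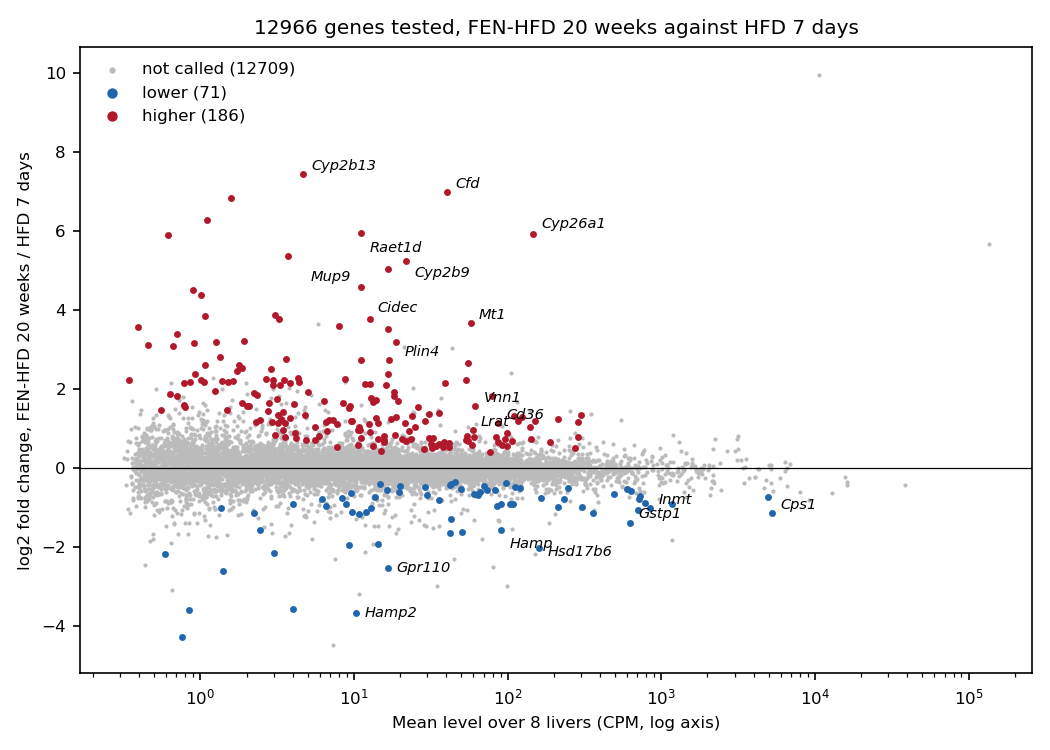
Each point is 1 of 12966 genes, with its mean level over 8 livers (CPM, log axis) and its log2 fold change, FEN-HFD at 20 weeks over HFD at 7 days. The 186 genes called higher (red) reach far larger changes than most of the 71 called lower (blue). Among the genes labelled by name, Cyp2b13 (7.45), Cfd (6.99), Raet1d (5.96) and Cyp26a1 (5.92) lie highest and Hamp2 (-3.68) lowest. The 2 grey points at the upper right of the most abundant levels are Rn45s and Lars2, which rest on mouse 29.

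Most of the liver transcriptome was near its 7-day level. For 7805 genes (60.2%) the 95% interval of the fold change lay wholly within 1.5-fold in either direction, and these made up 950 of the 1302 genes that averaged 100 CPM or more, of which 37 were called. A further 4907 genes (37.8%) were neither called nor held within 1.5-fold, so that for these the data show neither a difference nor its absence. There were 3 genes both called and within 1.5-fold.

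Cyp26a1, a target of retinoic acid, was among the genes furthest above the 7-day state, and other targets rose less or were not called. Of the 8 tested members of a list of 14 retinoic acid-inducible genes, 3 were higher and none lower, with a median log2 fold change of 0.89 against -0.0044 over all genes tested, and 3 of the 5 others were held within 1.5-fold. The share called over all genes tested was 1.43% higher and 0.548% lower. The 3 higher genes were the 2 cytochromes P450 that clear retinoic acid, Cyp26a1 and Cyp26b1, and the receptor gene Rarb. Stra6, Stra8 and Hoxb1 had no count in any of the 8 livers. Without mouse 29 the count was again 3.

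Cyp26a1 (chr19:37697738-37701536, mm10) was at 290.1, 285, 269.6 and 303 CPM in FEN-HFD mice 21, 22, 24 and 29, against 3.03, 6.84, 1.05 and 8.21 CPM in 7-day mice 142, 143, 144 and 146. Its level was alike in all FEN-HFD mice and varied several-fold among the 7-day mice, with a wide gap between the groups (60.3-fold, log2 fold change 5.92, SE 0.59, adjusted p = 0.00313). Cyp26b1, the second enzyme of this kind, was at 19.8, 20.8, 17.2 and 24.6 CPM against 4.73, 7.98, 2.28 and 3.88 CPM in the same order of mice (log2 fold change 2.12, SE 0.32, adjusted p = 0.0133). Rarb (chr14:16430839-17082331), which encodes retinoic acid receptor beta, was at 13.4, 12.1, 11.4 and 16.7 CPM against 5.14, 5.16, 6.56 and 6.33 CPM, so that the lowest FEN-HFD mouse was well above the highest 7-day mouse (log2 fold change 1.20, SE 0.15, adjusted p = 0.0044).

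Promoters of this list were searched for direct repeats of the half-sites GTTCA and GGTCA, in either combination and on either strand, with a gap of 6 bases between these 5 letters (the 5-base spacer known for RAR when a half-site is counted as 6 bases with any base in front). Sequences are RefSeq promoters of GRCm38.p6 (mm10), 250 bases before to 50 after a transcript start, given 5′ to 3′ on the gene's strand with the half-site letters in capitals. Of the 14 genes of the list, 10 had a promoter sequence to search. The 2 promoters shown are of the 2 members with such a repeat, both called higher.
Rarb, chr14:16575427-16575726, minus strand: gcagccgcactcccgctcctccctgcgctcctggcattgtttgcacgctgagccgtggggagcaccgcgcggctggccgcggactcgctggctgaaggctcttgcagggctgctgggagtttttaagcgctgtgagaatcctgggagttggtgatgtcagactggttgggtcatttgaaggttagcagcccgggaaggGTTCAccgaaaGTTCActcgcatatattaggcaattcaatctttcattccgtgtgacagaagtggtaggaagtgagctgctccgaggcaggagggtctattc
Cyp26a1, chr19:37697558-37697857, plus strand: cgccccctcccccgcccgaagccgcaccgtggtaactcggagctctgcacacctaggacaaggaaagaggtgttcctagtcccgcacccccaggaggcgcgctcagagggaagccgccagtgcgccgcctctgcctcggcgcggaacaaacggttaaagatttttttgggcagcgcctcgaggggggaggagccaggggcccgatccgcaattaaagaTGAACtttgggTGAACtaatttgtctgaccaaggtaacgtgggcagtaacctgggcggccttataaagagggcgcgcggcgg
The repeat begins 52 bases upstream of the start in Rarb, and 32 bases upstream in Cyp26a1, where it reads on the opposite strand and so appears as TGAAC. Such a repeat was in 81 of 32851 promoters in all (0.247%) and in 18 of 12270 promoters of genes tested (0.147%). Counted by gene, the latter were 18 of 9604 genes (0.187%). Among the called genes 132 of 186 higher and 44 of 71 lower genes had a promoter in the table, and the repeat was in promoters of 3 of these 132 genes (Rarb, Cyp26a1 and Blvrb) and in 0 of the 44. A spacer of 1 base, in place of 5, was in 132 promoters in all (0.402%) and in 33 of 12270 promoters of genes tested (0.269%). It was in none of the 176 promoters of higher or the 52 of lower genes, too few promoters to tell this from that share. A match describes letters only, and binding was not measured.

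Of 25 tested members of the list of retinol storage, binding and oxidation genes, 4 were higher (Lrat, Aldh1a7, Raet1d and Raet1e) and 2 lower (Rdh9 and Bcmo1). Their median was 0.08, and 1.43% of all genes tested were higher and 0.548% lower. Raet1d and Raet1e are in the list for their name as retinoic acid early transcripts, and encode NKG2D ligands rather than enzymes or carriers of retinol, so that 2 higher and 2 lower members act on retinoids or related aldehydes. Without mouse 143 none of the 25 was called lower. Lrat (chr3:82892582-82903974), which esterifies retinol for storage, was at 71.9, 82.1, 76.3 and 83.8 CPM in the FEN-HFD mice and at 41.4, 41.2, 37.2 and 40.6 CPM in the 7-day mice (log2 fold change 0.97, SE 0.08, adjusted p = 0.000646). Levels were tight within each group and close to 2-fold apart. Raet1d and Raet1e were near absent at 7 days, with 0.184 to 0.565 and 0.0924 to 0.301 CPM, and reached 19.1 to 24.6 and 5.37 to 9.12 CPM in FEN-HFD mice (log2 fold change 5.96, SE 0.25, adjusted p = 7.71e-06 for Raet1d, and log2 fold change 5.37, adjusted p = 0.000127 for Raet1e). Reads of these near-identical neighbours may be split between them by the counting. Aldh1a7, an aldehyde dehydrogenase with close paralogues, was at 224 to 378 CPM against 106 to 156 CPM (log2 fold change 1.23, SE 0.18, adjusted p = 0.0082). Bcmo1, which cleaves beta-carotene to retinal, was at 4.09 to 5 CPM against 6.75 to 9.85 CPM (log2 fold change -0.78, SE 0.16, adjusted p = 0.0345). Rdh9, one of several similar retinol dehydrogenases, was at 42.4 to 58.0 CPM against 62.4 to 92.2 CPM, and its adjusted p of 0.0413 became 0.0553 without mouse 29.

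Of 9 receptors and corepressors, 2 were higher, Rarb and Trim24, against 1.43% of all genes tested. Trim24, a cofactor that restrains retinoic acid receptor alpha in liver, was at 49.4, 51.2, 57.5 and 48.2 CPM in FEN-HFD mice and 17.5, 21.5, 19.7 and 19.8 CPM in 7-day mice, with no 7-day mouse near any FEN-HFD mouse (log2 fold change 1.40, SE 0.09, adjusted p = 0.000165). Rxrg, an RXR gene, was at 3.58 to 5.11 against 3.51 to 3.77 CPM and was not called (log2 fold change 0.29, adjusted p = 0.529). Among 6 imprinted genes tested, the non-coding RNAs Meg3 and Rian of the Dlk1-Dio3 locus were higher. Meg3 was at 4.05, 4.41, 6.74 and 4.46 CPM against 1.13, 1.04, 0.523 and 1.51 CPM (log2 fold change 2.23, SE 0.31, adjusted p = 0.00624), and Rian at 3.57 to 9.2 against 0.862 to 1.62 CPM (log2 fold change 2.11, adjusted p = 0.013, and 0.0557 without mouse 142). Both overlap other transcripts of the locus, so that their reads cannot be fully assigned.

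**Figure D2:**
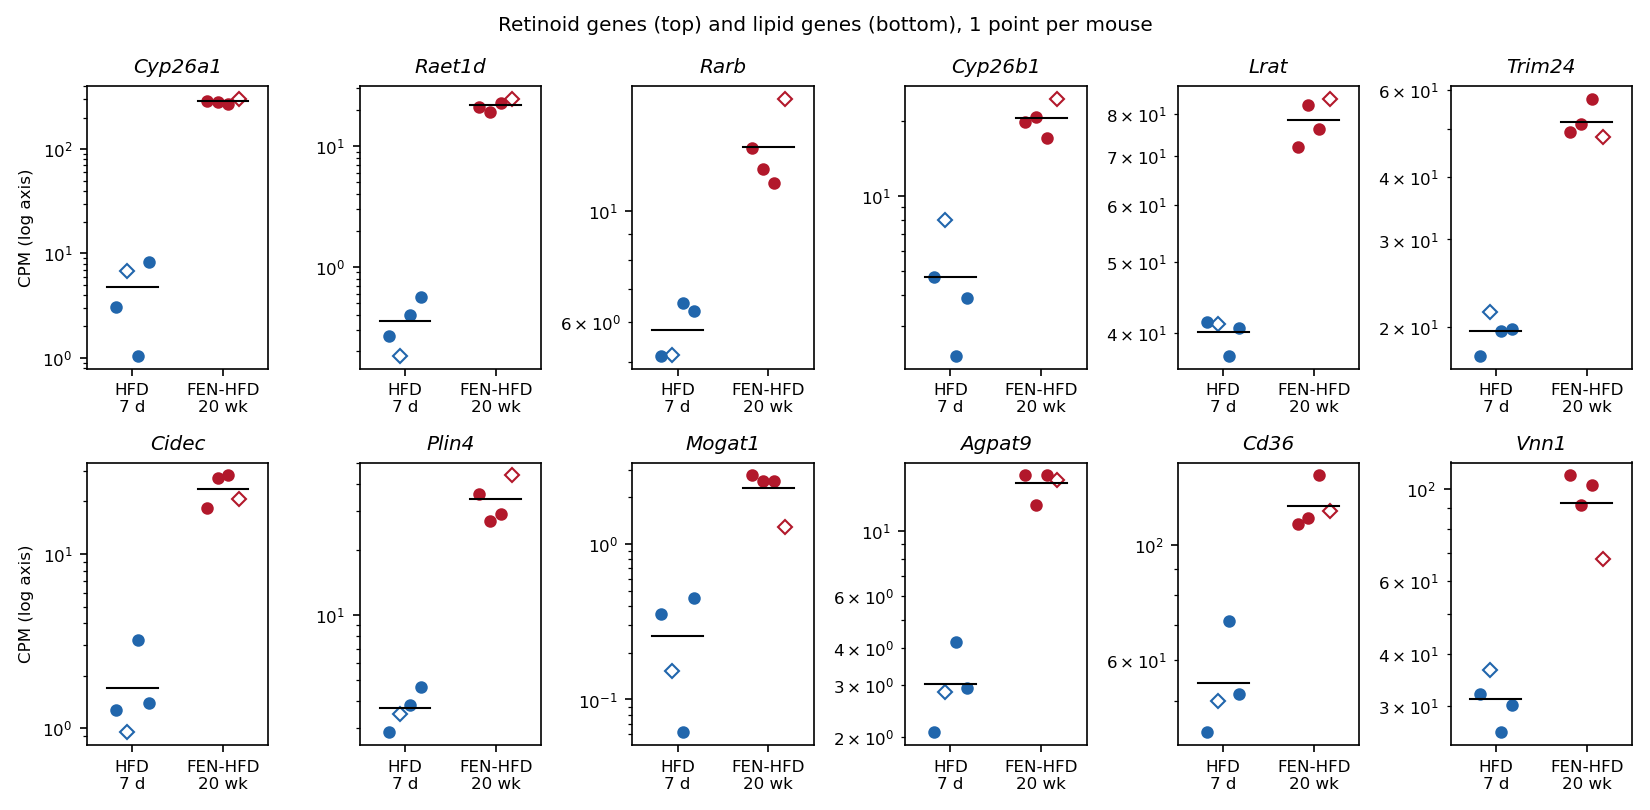
Levels of 12 genes called higher (CPM, log axes that differ between panels), with 1 point per mouse, 7-day HFD in blue and 20-week FEN-HFD in red, open diamonds for mice 143 and 29, and bars for group means. No panel has an overlap between groups, and mouse 29 is above every 7-day mouse in each, although it is the lowest FEN-HFD mouse for Mogat1 and Vnn1, where the group runs from 1.29 to 2.77 and from 67.7 to 108 CPM.

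These retinoid genes were also measured in the other livers of the study, in 1 fit of 16 libraries and 13387 genes. In that fit 12 genes were higher (0.0896%) and 2 lower (0.0149%) in FEN-HFD than in HFD livers at 7 days, 912 were higher (6.81%) and 475 lower (3.55%) in HFD livers at 20 weeks than at 7 days, and 254 were higher (1.9%) and 407 lower (3.04%) in FEN-HFD than in HFD livers at 20 weeks. Levels from that fit are scaled over 16 libraries and so differ a little from those above. These comparisons share libraries with each other and with the main comparison, and values are set side by side without a test between them. Cyp26a1 averaged 5.02 ± 3.48 CPM (mean ± SD, n = 4) in 7-day HFD, 230.0 ± 28.4 in 7-day FEN-HFD, 4.16 ± 0.579 in 20-week HFD and 303 ± 12.8 in 20-week FEN-HFD livers. Its log2 fold change was 5.53 (adjusted p = 2.41e-05) for fenretinide at 7 days and -0.26 (adjusted p = 0.728) for 20 weeks against 7 days of HFD alone. For Rarb these values were 1.15 (adjusted p = 0.004) and 0.06 (adjusted p = 0.846), for Lrat 0.91 (adjusted p = 0.004) and 0.23 (adjusted p = 0.271), and for Meg3 2.58 (adjusted p = 0.00779) and -0.71 (adjusted p = 0.321). Trim24 moved in both, by 0.85 (adjusted p = 0.00462) and 0.67 (adjusted p = 0.00192). Raet1d was also called in both, at 5.57 (adjusted p = 1.08e-06) and 2.23 (adjusted p = 0.00183), with 0.372 ± 0.177 CPM in 7-day HFD and 1.7 ± 0.873 CPM in 20-week HFD livers. For Raet1e the values were 4.99 (adjusted p = 0.000158) and 1.31 (adjusted p = 0.179), and for Cyp26b1 2.25 (adjusted p = 0.011) and 0.22 (adjusted p = 0.733). For Aldh1a7 they were 0.42 (adjusted p = 0.948) and 1.31 (adjusted p = 0.000201), and the difference between those effects was not tested.

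Genes of lipid storage and fatty acid uptake made up the next group. In the list of triglyceride synthesis and lipid droplets, 7 of 25 genes were higher and none lower (median 0.19), and in that of PPAR-gamma and fatty acid uptake, 7 of 13 were higher and none lower (median 1.03). The lists share Mogat1, Cidea and Cidec, and over all genes tested 1.43% were higher and 0.548% lower. Without mouse 29 the counts were 6 higher with 1 lower, and 7. Cidec (chr6:113424634-113435760), which fuses lipid droplets, was at 18.3, 27.1, 28.2 and 20.6 CPM in FEN-HFD mice against 1.28, 0.952, 3.2 and 1.39 CPM in 7-day mice, with no overlap between the groups (13.8-fold, log2 fold change 3.78, SE 0.36, adjusted p = 0.00173). Plin4 (chr17:56100587-56109948), a droplet coat protein, was at 36.1, 27.1, 29.2 and 43.9 CPM against 2.88, 3.5, 3.85 and 4.63 CPM (log2 fold change 3.19, SE 0.19, adjusted p = 0.000127). Cidea, a relative of Cidec, went from 2, 0, 0 and 1 reads in the 7-day libraries to 165, 120, 32 and 8 reads in those of mice 21, 22, 24 and 29, with a fitted log2 fold change of 6.83 (adjusted p = 0.00624) that depends on the prior count. Clstn3, whose locus also yields a droplet protein in adipocytes, was at 20.1 to 33.7 against 2.36 to 6.04 CPM (log2 fold change 2.75, adjusted p = 0.00384).

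Enzymes that build triglyceride were higher as well. Agpat9, which acylates glycerol-3-phosphate, was at 15.4, 12.3, 15.4 and 14.9 CPM in FEN-HFD mice and 2.08, 2.85, 4.22 and 2.94 CPM in 7-day mice (log2 fold change 2.26, SE 0.20, adjusted p = 0.000725). Mogat1, which acylates monoacylglycerol, was low throughout, at 2.77, 2.56, 2.55 and 1.29 CPM against 0.357, 0.153, 0.0616 and 0.452 CPM, with 13 to 78 reads against 2 to 12 (log2 fold change 3.20, SE 0.48, adjusted p = 0.00892). Mogat2 was at 0.462 to 0.793 against 0.0616 to 0.226 CPM (log2 fold change 2.23, adjusted p = 0.0322), and Fitm1, which helps droplets form, was at 49.0 to 71.7 against 6.03 to 21.5 CPM (log2 fold change 2.16, adjusted p = 0.0374). Of the uptake genes, Cd36, a fatty acid translocase, was at 109.9, 113, 136 and 116 CPM against 43.4, 49.8, 71.3 and 51.4 CPM (log2 fold change 1.14, SE 0.15, adjusted p = 0.00558), and its highest 7-day mouse lay well under its lowest FEN-HFD mouse. Pparg, the receptor that controls many of these genes, was at 13.1 to 28.7 against 4.67 to 9.52 CPM (log2 fold change 1.66, adjusted p = 0.0187). Mogat2, Fitm1, Cidea, Pparg and the Acot1, Acot2, Cyp4a10 and Pex11a values below were, like Bcmo1, Rdh9, Blvrb and Vnn3, chosen after their values were seen, as members of the lists that were called.

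In the list of PPAR-alpha targets, 9 of 34 genes were higher and 1 lower (median 0.22), against 1.43% and 0.548% of all genes tested. Vnn1, a pantetheinase, was at 108, 91.1, 102 and 67.7 CPM against 32.0, 36.6, 25.9 and 30.1 CPM (log2 fold change 1.57, SE 0.16, adjusted p = 0.00173). Crat, carnitine acetyltransferase, was at 35.9, 37.1, 43.0 and 45.1 CPM against 14.5, 16.9, 24.5 and 14.6 CPM (log2 fold change 1.19, SE 0.17, adjusted p = 0.0079), and it overlaps Dolpp1. Pdk4, which shuts glucose carbon out of oxidation, was at 4.36 to 6.19 against 1.81 to 1.99 CPM (log2 fold change 1.42, adjusted p = 0.00313). The acyl-CoA thioesterases Acot3, Acot1 and Acot2 changed by 3.52, 1.83 and 1.26 on the log2 scale, Cyp4a10 by 1.81 and Pex11a by 1.05. Acot and Cyp4a genes have near-identical neighbours, so that their reads may be split between them. The lower gene was Vnn3, at 41.8 to 50.5 against 63.7 to 84.2 CPM (log2 fold change -0.65, adjusted p = 0.0142), and the other 24 members were not called.

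Levels of these lipid genes in FEN-HFD livers lay between those of the HFD groups. Cidec averaged 1.79 ± 1.06 CPM in 7-day HFD, 24.9 ± 5.3 in 20-week FEN-HFD and 70.9 ± 51.0 in 20-week HFD livers (mean ± SD, n = 4 each), with a log2 fold change of -1.51 (adjusted p = 0.0832) between the 20-week groups that was not called. Plin4 averaged 3.9 ± 0.78, 36.0 ± 7.82 and 81.4 ± 32.7 CPM in that order, Cd36 56.6 ± 12.6, 126 ± 13.5 and 319.8 ± 116 CPM, and Crat 18.5 ± 4.88, 42.6 ± 4.72 and 102 ± 7.06 CPM. Between the 20-week groups these genes were called lower with fenretinide, with log2 fold changes of -1.19 (adjusted p = 0.0259) for Plin4, -1.35 (adjusted p = 0.00196) for Cd36, -1.26 (adjusted p = 0.000259) for Crat, -1.66 (adjusted p = 0.0139) for Mogat1 and -0.72 (adjusted p = 0.0191) for Vnn1. Agpat9 differed by -0.55 (adjusted p = 0.145) and was not called. After 7 days of fenretinide Cidec, Plin4, Cd36 and Crat averaged 2.16 ± 0.952, 5.05 ± 2.02, 48.1 ± 3.76 and 16.4 ± 2.92 CPM, and none was called against HFD at that time.

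**Figure D3:**
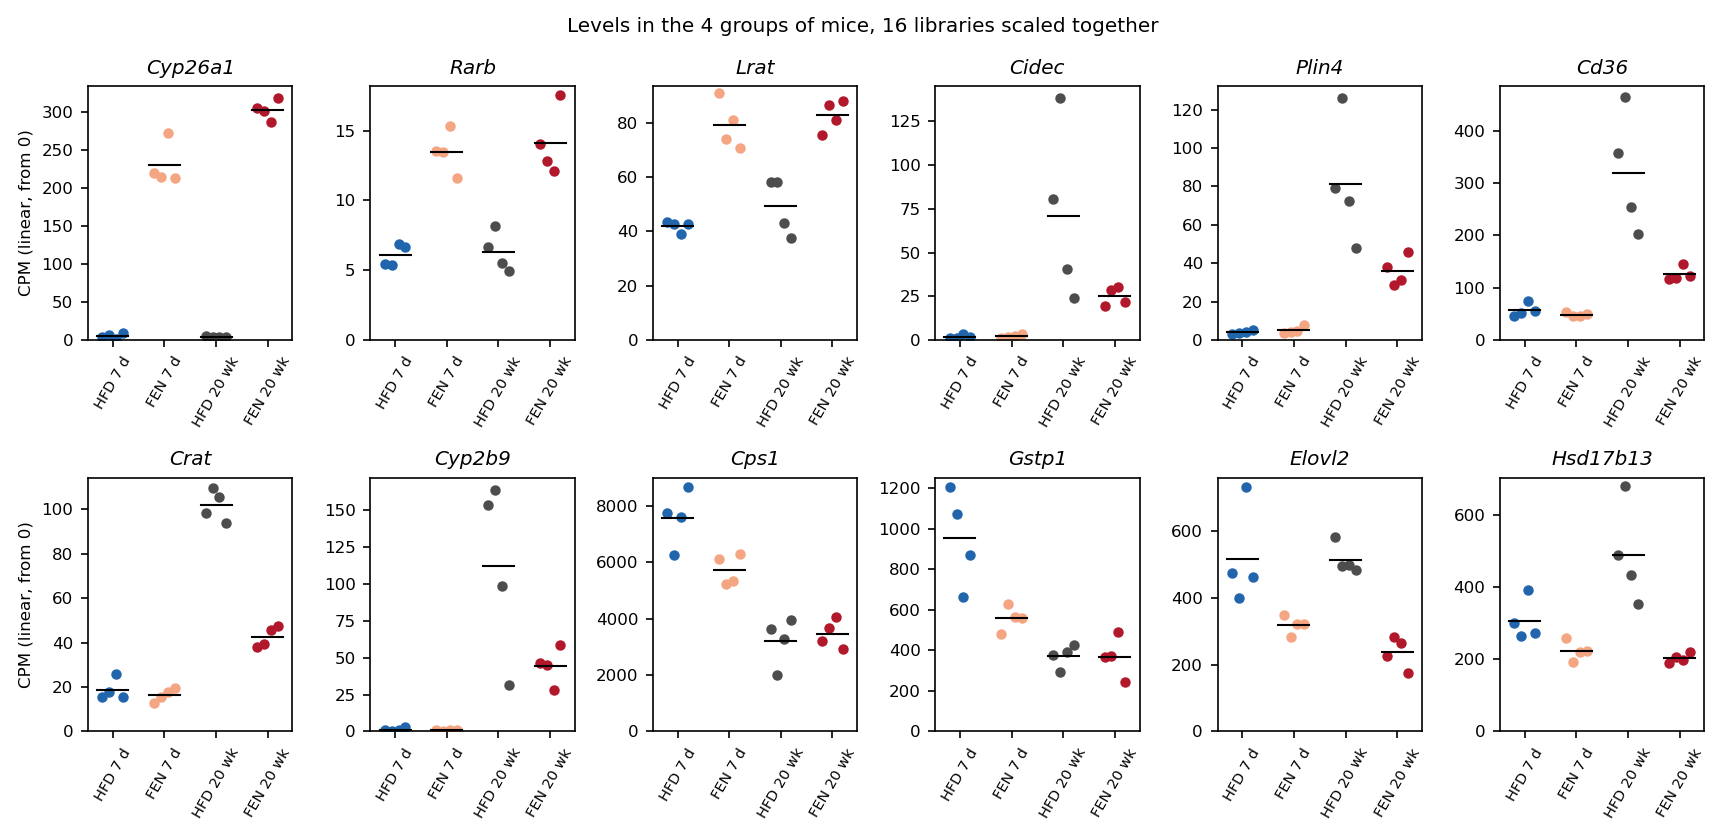
Levels of 12 genes (CPM, linear axes from 0) in all 16 livers scaled together, with 1 point per mouse, bars for the mean of 4 mice, and from left to right HFD and FEN-HFD for 7 days and then for 20 weeks. Cyp26a1, Rarb and Lrat are high in both FEN-HFD groups, Cidec, Plin4, Cd36 and Crat are highest in 20-week HFD with FEN-HFD between, and Cps1 and Gstp1 are low in both 20-week groups.

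Calls among genes of lipid synthesis are given beside the share over all genes tested, 1.43% higher and 0.548% lower. Acacb, which makes the malonyl-CoA that restrains fatty acid oxidation, was 1 of 18 fatty acid synthesis genes called, at 58.9 to 78.7 against 33.4 to 45.2 CPM (log2 fold change 0.81, SE 0.12, adjusted p = 0.0102). Srebf1, the controlling factor of this pathway, was at 189 to 319 against 396 to 703 CPM, without overlap, and was not called (log2 fold change -0.86, adjusted p = 0.106). Hmgcs1 was 1 of 24 cholesterol genes called, at 129.6 to 135 against 67.9 to 90.1 CPM (log2 fold change 0.68, adjusted p = 0.00892). In the list of 18 ceramide genes, Smpd3, a neutral sphingomyelinase, was at 30.0, 37.7, 30.8 and 19.9 CPM against 8.21, 12.2, 7.79 and 8.66 CPM (log2 fold change 1.69, SE 0.21, adjusted p = 0.00431), and Acer2, an alkaline ceramidase, at 22.5 to 32.1 against 13.8 to 18.1 CPM (log2 fold change 0.73, adjusted p = 0.0258).

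A pair of neighbouring Cyp2b genes was among the largest changes. Of 20 CAR and PXR targets tested, 4 were higher and none lower (median 0.39), against 1.43% and 0.548% of all genes tested. Cyp2b9 was at 43.9, 42.4, 26.6 and 56.1 CPM in FEN-HFD mice against 0.625, 0.553, 0.646 and 2.75 CPM in 7-day mice, with mouse 146 the highest of the latter (log2 fold change 5.25, SE 0.53, adjusted p = 0.00316). Its neighbour Cyp2b13 had 3, 1, 0 and 2 reads in the 7-day libraries and 286, 294, 74 and 127 reads in those of mice 21, 22, 24 and 29 (log2 fold change 7.45, SE 0.61, adjusted p = 0.000646, a fitted value that depends on the prior count because the 7-day reads are so few). Both belong to a cluster of near-identical Cyp2b genes, and they were the 2 genes called higher of 29 sex-biased and growth hormone-dependent genes. In that list Nudt7 was lower, the median was -0.21, and the summed level ran from 15110 to 30860 CPM in FEN-HFD livers against 29980 to 42720 CPM in 7-day livers. Cyp2b9 was also high in 20-week HFD livers, at 112 ± 60.9 CPM against 44.6 ± 12.5 CPM with fenretinide. These 20-week groups overlapped, and their difference was not called by edgeR in the fit of 16 libraries (log2 fold change -1.34, adjusted p = 0.135). Cyp2c37 was at 278 to 483 against 112 to 205 CPM (log2 fold change 1.16, adjusted p = 0.0298), and Ugt1a1, which conjugates bilirubin and was chosen after its values were seen, at 309 to 348 against 199.5 to 247 CPM (log2 fold change 0.51, adjusted p = 0.0322). Mup9, one of many similar major urinary protein genes, was at 23.8, 27.5, 29.1 and 4.76 CPM against 1.75, 0.553, 0.277 and 0.979 CPM, with mouse 29 the lowest of its group (log2 fold change 4.59, SE 0.68, adjusted p = 0.0153).

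Cfd (chr10:79890853-79892655), or adipsin, a serine protease of the alternative complement pathway made mainly in fat, had 2160, 1404, 1103 and 1389 reads in the FEN-HFD libraries and 43, 3, 2 and 29 in the 7-day libraries, or 76.8, 52.0, 52.0 and 138 CPM against 1.28, 0.0921, 0.0616 and 1.09 CPM (log2 fold change 6.99, SE 0.75, adjusted p = 0.0044). Adipocyte markers were checked because a fat cell admixture would carry them. Of 5 tested adipocyte markers, 3 were higher (Cfd, Fabp4 and Cidec) and none lower, against 1.43% and 0.548% of all genes tested, and 9 were listed. The summed level of the list ran from 3306 to 4654 CPM in FEN-HFD livers and from 1282 to 3071 CPM in 7-day livers. Fabp4, which carries fatty acids, was at 11.03 to 21.5 against 5.77 to 7.91 CPM (log2 fold change 1.03, adjusted p = 0.0356). Of the markers that define fat cells, Adipoq, Lep, Retn and Plin1 had 3, 2, 1 and 2 reads in all 8 libraries together. Car3, which hepatocytes also express, held most of the sum. Whether fat cells contributed to the Cfd level was not tested. In bulk tissue, fewer or more cells of a type and less or more RNA per cell cannot be told apart.

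Of 34 tested stress-response genes, 4 were higher and none lower, against 1.43% and 0.548% of all genes tested. Mt1 and Mt2, metal-binding metallothioneins, were among them. Mt1 was at 79.8, 35.9, 64.2 and 246 CPM in FEN-HFD mice 21, 22, 24 and 29 and at 6.33, 7.00, 15.4 and 4.52 CPM in the 7-day mice (log2 fold change 3.67, SE 0.70, adjusted p = 0.0455). Mt2 was at 23.3, 7.74, 14.6 and 84.6 CPM against 0.506, 1.5, 1.42 and 0.377 CPM (log2 fold change 5.04, SE 0.92, adjusted p = 0.0379). Mouse 29 was the highest of all in both, and without it the log2 fold changes were 2.85 for Mt1 and 3.98 for Mt2. Their adjusted p rose above 0.05 under several alternatives, up to 0.142 for Mt1 and 0.12 for Mt2. Hspb1, a small heat shock protein, was at 7.43 to 18.8 against 4.19 to 5.99 CPM (log2 fold change 1.52, adjusted p = 0.0171), and Cdkn1a, a cell-cycle inhibitor induced by p53, at 1.39 to 2.88 against 0.226 to 0.89 CPM (log2 fold change 2.20, adjusted p = 0.024). Of 19 NRF2 targets, Nqo1, a quinone reductase, was at 6.78 to 8.77 against 3.51 to 4.78 CPM (log2 fold change 0.82, adjusted p = 0.0226) and Gsta2 at 13.5 to 29.1 against 3.09 to 10.3 CPM (log2 fold change 1.71, adjusted p = 0.0498), whereas Gstp1 was lower, at 349.9, 353, 460.4 and 232 CPM against 1143, 1033, 634 and 822 CPM (log2 fold change -1.38, SE 0.24, adjusted p = 0.0189). Gsta2 kept its call in 5 of 18 alternatives.

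Among other genes higher in FEN-HFD livers, Themis, best known in T-cell development, was at 5.55 to 23.8 against 0.739 to 2.11 CPM (log2 fold change 3.60, SE 0.49, adjusted p = 0.0079), and Chpt1, which makes phosphatidylcholine and overlaps Sycp3, at 264 to 630.3 against 125 to 192 CPM (log2 fold change 1.35, adjusted p = 0.0307). Inhbb, the activin beta-B subunit, was at 5.52 to 8.62 against 1.92 to 3.33 CPM (log2 fold change 1.34, adjusted p = 0.0134). Of 18 alternatives Chpt1 kept its call in 10, as did Cyp2c37, with Nqo1, Acer2 and Fabp4 in 11 and Hspb1 in 12. Abcc3, which exports bile acids and conjugates from hepatocytes, was at 166 to 201 against 99.0 to 112 CPM (log2 fold change 0.75, adjusted p = 0.0044), and Paqr9, a membrane receptor family member, at 162 to 220.4 against 78.1 to 111 CPM (log2 fold change 1.03, adjusted p = 0.0065).

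Of the lower genes that averaged 5 CPM or more, Hamp2 had the largest change. Hamp, which encodes the iron hormone hepcidin, and its mouse relative Hamp2 (chr7:30922372-30924181) were both called. Hamp2 was at 1.46, 1.78, 1.13 and 1.59 CPM in the FEN-HFD mice against 16.6, 5.37, 23.2 and 31.1 CPM in the 7-day mice (log2 fold change -3.68, SE 0.52, adjusted p = 0.0111). Hamp was at 52.2, 40.6, 46.7 and 44.9 CPM against 197, 68.9, 163 and 114 CPM (log2 fold change -1.56, SE 0.28, adjusted p = 0.0269). Mouse 143 was the lowest 7-day mouse in both. The fold changes held without mouse 29, at -3.69 and -1.55, but the adjusted p became 0.0521 and 0.0833. These were the 2 called of 23 acute phase genes, and 0.548% of all genes tested were lower. Hamp kept its call in 11 of 18 alternatives and Hamp2 in 15. Gpr110, an adhesion receptor, was at 4.11 to 6.14 against 17.1 to 46.4 CPM (log2 fold change -2.52, SE 0.34, adjusted p = 0.00673), and Ccl9, a chemokine, at 16.7 to 31.6 against 50.1 to 91.5 CPM (log2 fold change -1.63, adjusted p = 0.0164).

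Periportal hepatocyte genes carry the urea cycle and amino acid breakdown near the portal vein. Of 15 tested, 5 were lower and none higher, with a median of -0.67, and 6 were lower without mouse 29. The 5 were the highest count of lower calls of the 29 lists, and 0.548% of all genes tested were lower. The summed list ran from 34990 to 48120 CPM in FEN-HFD livers and from 49070 to 62790 CPM in 7-day livers. Cps1 (chr1:67122426-67231267), which starts the urea cycle, was at 3029.7, 3476, 3802 and 2772 CPM against 7346, 6029.5, 7261 and 8202 CPM, with no overlap (log2 fold change -1.14, SE 0.16, adjusted p = 0.00619). Hsd17b6, which oxidises steroids and retinol, was at 61.5, 70.9, 25.3 and 96.3 CPM against 243, 330.2, 258 and 198 CPM (log2 fold change -2.02, SE 0.36, adjusted p = 0.0258). Cdh1 (E-cadherin) was at 17.2 to 32.1 against 50.5 to 83.6 CPM (log2 fold change -1.28, adjusted p = 0.0197), Gldc of the glycine cleavage system at 51.6 to 83.3 against 92.2 to 129.7 CPM (log2 fold change -0.92, adjusted p = 0.0232), and Agxt2l1, chosen after its values were seen, at 39.1 to 72.6 against 96.2 to 147 CPM (log2 fold change -0.95, adjusted p = 0.0436). Of 18 alternatives Hsd17b6 kept its call in 11 and Gldc in 12. Of 15 pericentral genes, Cyp1a2 was the only call, at 162 to 236 against 274 to 539.8 CPM (log2 fold change -0.98, adjusted p = 0.0361). It lost the call without mouse 29 (adjusted p = 0.0584) and without several other single mice, and kept it in 8 of 18 alternatives. Cps1 was also low in 20-week HFD livers (3221 ± 857 CPM, log2 fold change -1.23 (adjusted p = 0.000475) against 7 days), with 0.10 (adjusted p = 0.799) between the 20-week groups. Cdh1 was at -1.88 (adjusted p = 0.00078) and 0.61 (adjusted p = 0.242) in those comparisons. Gldc was at 0.16 (adjusted p = 0.605) for longer HFD and -1.06 (adjusted p = 0.00231) between the 20-week groups, and Hsd17b6 at -0.73 (adjusted p = 0.17) and -1.29 (adjusted p = 0.0359).

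Further lower genes were of several kinds. Cyp39a1, which hydroxylates oxysterols on the way to bile acids, was at 3.41, 5.67, 3.02 and 2.97 CPM against 11.3, 14.0, 19.1 and 14.4 CPM (log2 fold change -1.94, SE 0.24, adjusted p = 0.00431), and it was at 19.5 ± 5.45 CPM in 20-week HFD livers. Elovl2, which lengthens polyunsaturated fatty acids, was at 215, 266, 249.3 and 167 CPM against 449.7, 385, 700.1 and 437 CPM (log2 fold change -1.13, SE 0.21, adjusted p = 0.0252), against 515 ± 45.7 CPM in 20-week HFD and 319 ± 27.4 CPM in 7-day FEN-HFD livers. Cyp2u1, a fatty acid hydroxylase, was at 19.9 to 29.1 against 65.6 to 84.1 CPM (log2 fold change -1.62, adjusted p = 0.000878), and Abca8a, a lipid transporter, at 129.6 to 155 against 255 to 310.4 CPM (log2 fold change -0.97, adjusted p = 0.0019). Nudt7, which hydrolyses coenzyme A in peroxisomes, was at 381 to 607 against 775 to 958 CPM (log2 fold change -0.77, adjusted p = 0.0377). Inmt, an amine methyltransferase, was at 561, 545, 569 and 582.1 CPM against 1163, 964, 1099 and 1329 CPM (log2 fold change -1.01, SE 0.12, adjusted p = 0.00316). Cyp2c68, Cyp2c67 and Cyp2c44, which have close paralogues, were at 66.0 to 89.2, 112 to 135 and 154 to 199 CPM against 128 to 156, 195 to 224 and 273 to 319.6 CPM. Enho, which encodes adropin and overlaps Dnaic1, was at 4.2 to 10.5 against 13.0 to 33.7 CPM (log2 fold change -1.91, adjusted p = 0.0343), Gabbr2 at 5.33 to 8.52 against 11.3 to 21.6 CPM, Upp2, a uridine phosphorylase, at 451 to 556 against 681 to 841 CPM, and Lum, a proteoglycan of the matrix, at 5.29 to 8.72 against 10.4 to 12.6 CPM. Of 18 alternatives, Enho, Upp2 and Lum kept their calls in 10, Nudt7 in 11 and Gabbr2 in 12, each losing it when some single mice were left out.

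**Figure D4:**
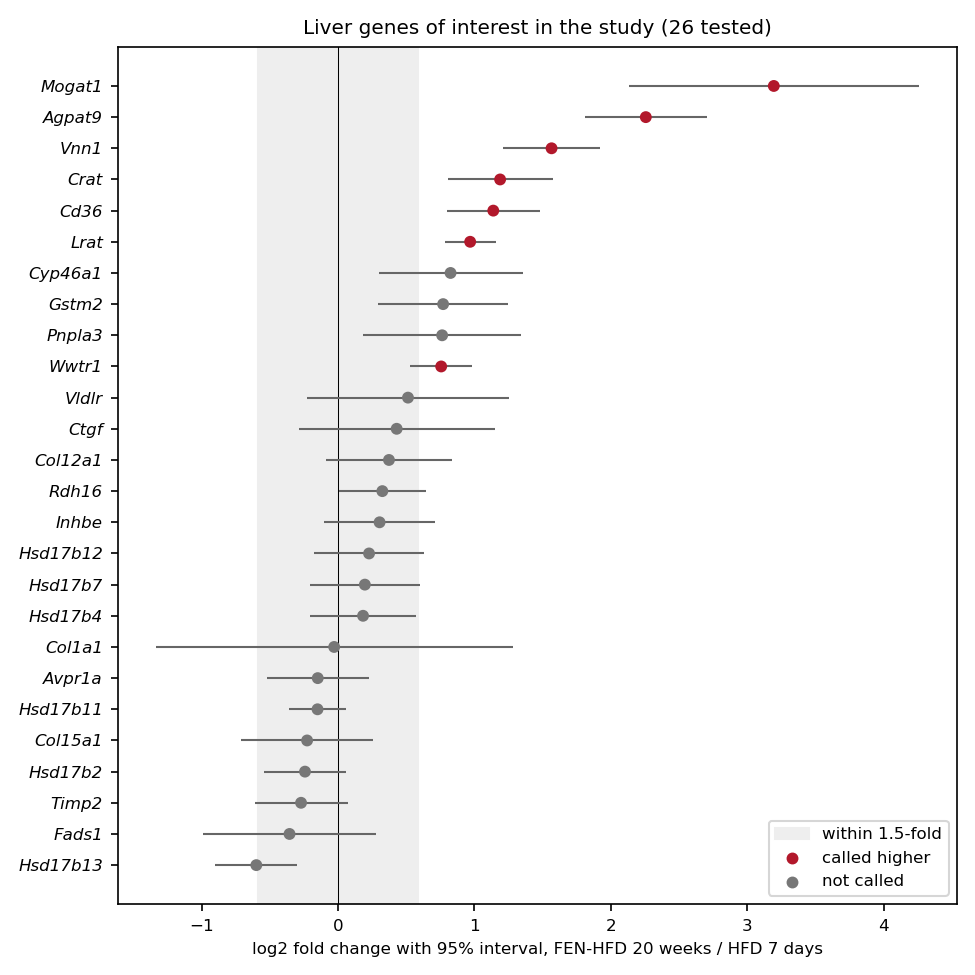
Log2 fold changes with 95% intervals for the 26 tested members of a chosen set of liver genes of interest in the study, FEN-HFD at 20 weeks over HFD at 7 days. Points are red where called higher and grey where not called, and the range within 1.5-fold is shaded. The 7 genes from Mogat1 (3.20) to Wwtr1 (0.76) are called higher, and the other points lie from Hsd17b13 (-0.60) to Cyp46a1 (0.82).

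Of a chosen set of 27 liver genes of interest in the study, 26 were tested here, and 7 were higher and 0 lower. Over all genes tested, 1.43% were higher and 0.548% lower. The set leaves out some genes that the study names, such as Cept1. It holds Rdh16, Cyp46a1 and Gstm2, which the paper's text does not name. Some of the set were named from RNA-seq of livers that include the 4 FEN-HFD mice, so that their direction is not independent evidence. Others, such as Lrat, Cd36, Vldlr and Fads1, were named from other livers. Besides the genes above, Wwtr1, which encodes the co-activator Taz, was at 42.3, 42.3, 46.6 and 34.1 CPM against 25.6, 24.9, 23.6 and 23.8 CPM (log2 fold change 0.76, SE 0.10, adjusted p = 0.00558). Hsd17b13 (chr5:103955442-103977388), a lipid droplet enzyme, was at 182, 197, 185 and 209 CPM in FEN-HFD mice and 285, 255, 374 and 257 CPM in 7-day mice, without overlap but not called (log2 fold change -0.60, SE 0.13, adjusted p = 0.06, 95% interval -0.90 to -0.30). It was called lower without mouse 29 (adjusted p = 0.0474), with DESeq2 (adjusted p = 0.00147) and with limma-voom (adjusted p = 0.00748), and its adjusted p ran from 0.00147 to 1 over all alternatives. It averaged 490.2 ± 139 CPM in 20-week HFD livers. Within 1.5-fold of the 7-day level were Hsd17b2 at 127 to 168 against 144 to 212 CPM (log2 fold change -0.24, interval -0.54 to 0.06), Avpr1a, the vasopressin receptor, at 9.63 to 13.9 against 9.82 to 15.7 CPM (-0.15, -0.52 to 0.23), Hsd17b4 (0.18) and Hsd17b11 (-0.15). In 20-week HFD livers Hsd17b2 and Avpr1a averaged 85.0 ± 14.8 and 5.83 ± 2.31 CPM. Rdh16, at 66.0 to 88.6 against 49.2 to 72.1 CPM, was not called (log2 fold change 0.32, adjusted p = 0.404), with 210.3 ± 37.9 CPM in 20-week HFD livers. Fads1, Vldlr, Pnpla3, Gstm2, Inhbe, Ctgf, Cyp46a1, Col1a1, Col12a1, Col15a1, Timp2, Hsd17b7 and Hsd17b12 were not called and their intervals were not held within 1.5-fold. Timp1 had 1 to 7 reads per library and was not tested.

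Some lists showed no call. Of 28 collagen and fibrosis genes, 0 were called in either direction by edgeR, with a median of 0.03, and 3 had groups that did not overlap. The share without overlap over all genes tested was 7.74%, and the shares called were 1.43% higher and 0.548% lower. At those shares 0 calls in a list of this size is no departure from all genes. Only 2 of the 28 were held within 1.5-fold, so that for most the data show neither a difference nor its absence. Col1a1 was at 3.16, 2.74, 4.1 and 16.2 CPM against 4.1, 8.87, 5.85 and 6.44 CPM, and mouse 29 was far above the other 3 FEN-HFD mice. Of 28 oxidative phosphorylation genes, 27 were within 1.5-fold, with a range of -0.26 to 0.01. The exception was Cox7a1, with 199 reads over the 8 libraries. Of 21 glucose and insulin genes and of 31 cell-cycle genes, 0 were called, and 13 and 5 in that order were held within 1.5-fold. At an unadjusted p under 0.05 there were 4 collagen and fibrosis, 1 oxidative phosphorylation, 1 glucose and insulin and 4 cell-cycle genes. DESeq2 and limma-voom each called 1 gene lower among the glucose and insulin genes and 0 in the other 3 lists. MHC genes (19) had 0 calls by edgeR, DESeq2 and limma-voom and 0 at an unadjusted p under 0.05, with 2 held within 1.5-fold.

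Among all genes tested, 1.43% were higher and 0.548% lower. Calls in the lists not yet counted were at most 1 per list and direction. They were 1 higher and 1 lower of 20 bile acid genes (Abcc3 and Cyp39a1), 1 and 1 of 24 phospholipid and polyunsaturated fatty acid genes (Chpt1 and Elovl2), 1 and 1 of 20 hepatokines and activin subunits (Inhbb and Enho), 1 higher of 15 Yap and Taz genes (Wwtr1), 1 lower of 22 clock genes (Upp2), and 1 lower of 9 17-beta hydroxysteroid dehydrogenases (Hsd17b6). Without mouse 143 neither Chpt1 nor Hsd17b6 was called. Without mouse 29 the PPAR-alpha list had 10 higher genes, the CAR and PXR list 5, the sex-biased list 3 and the hepatokine list 2, the bile acid and 17-beta hydroxysteroid dehydrogenase lists had 2 lower each, and the NRF2 list had 1 higher.

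Interferon-stimulated genes had the lowest median of all lists, -1.07 over 29 genes, with 1 gene called lower. This was Ifih1, a sensor of viral RNA, at 53.02, 51.4, 52.2 and 54.4 CPM against 69.2, 93.0, 78.3 and 78.9 CPM (log2 fold change -0.60, SE 0.10, adjusted p = 0.0148). The summed list was 861.8, 819.5, 1027 and 1769 CPM in FEN-HFD mice 21, 22, 24 and 29, and 1155, 8775, 1195 and 1354 CPM in the 7-day mice, so that mouse 143 alone was several-fold above all others, and mouse 29 was highest of its group. Without mouse 29 the list had 3 lower genes, without mouse 143 it had 1, and without both, a setting chosen after the data were seen, it had 13 of 29 lower and none higher. Lower calls over all genes also moved, from 71 with all mice kept to 97, 63 and 214 in these settings, in the same order.

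**Figure D5:**
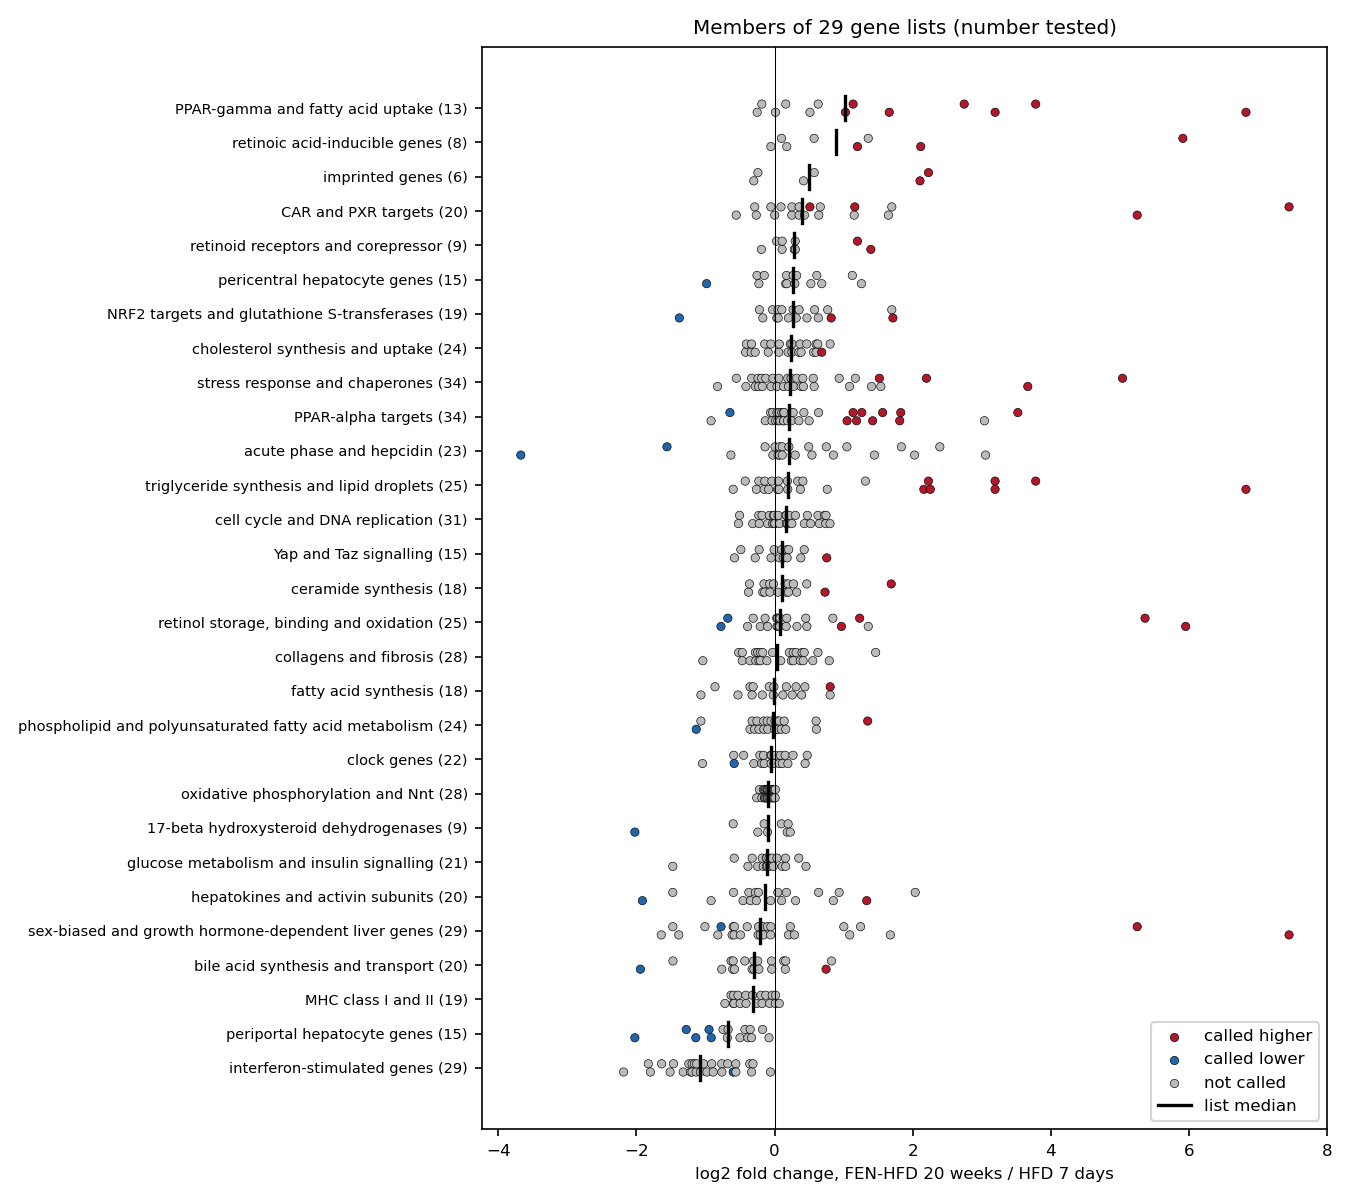
Log2 fold changes of the members of 29 gene lists (number tested in brackets), red for called higher, blue for called lower, grey for not called, with a black bar at each list's median. The lists with the highest medians are PPAR-gamma and fatty acid uptake and retinoic acid-inducible genes, and the lowest are periportal and interferon-stimulated genes, where the interferon values carry mouse 143.

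Markers of other cell types were read beside these results. Of 10 hepatocyte markers, 1 (Cps1) was lower, and their sum was 79030 to 90670 CPM in FEN-HFD livers and 96600 to 114900 CPM in 7-day livers. Stellate cell markers summed to 603.5 to 918.8 CPM against 622.8 to 794.5 CPM, with Lrat higher and Lum lower. Kupffer cell markers summed to 666 to 1585 CPM against 667 to 1518 CPM, highest in mice 29 and 143. T and NK cell markers summed to 4.926 to 22.4 CPM against 7.613 to 21.39 CPM, and neutrophil markers to 2.222 to 19.03 CPM against 2.787 to 9.331 CPM, again highest in mice 29 and 143. Of 15 lipid-associated macrophage markers, Cd36 alone was called. By edgeR 0 were called of 14 sinusoidal endothelial, 15 Kupffer, 8 cholangiocyte, 9 T and NK, 7 B and plasma, 3 neutrophil, 2 pancreas, 1 skeletal muscle and 4 erythroid markers tested. At an unadjusted p under 0.05 these lists had 5, 1, 2, 0, 1, 0, 1, 1 and 1 genes in that order. Held within 1.5-fold were 10, 1, 1, 0, 0, 0, 0, 0 and 1, again in that order. With 1.43% higher and 0.548% lower over all genes tested, 0 calls in lists this short is no departure from all genes. DESeq2 called 2 endothelial markers lower and 1 B and plasma marker higher. Limma-voom called 4 endothelial and 1 T and NK marker lower and 1 Kupffer marker higher. Of 13 pancreas markers listed, 9 had no count in any library. The part of these cells in the results above was not tested.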

How the data were processed

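Liver RNA was measured in 16 male mice, of which 8 were compared here, 4 per group. Groups and mouse numbers came from the sample labels. The authors deposited unnormalised counts of reads for each gene symbol, after filtering paired-end reads and aligning them to mm10 with STAR 2.0. The paper's methods name DESeq2, whose version the submitters' processing notes give as 1.6. The counting program, annotation and strand setting are not given in the sources used here. The labels name a stranded total RNA kit and the paper another TruSeq kit, and the difference was not settled.

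From these, the 12966 of 23420 symbols that passed the filter were tested with edgeR 4.0.16 under R 4.3.3 (filterByExpr, TMM, then glmQLFit and glmQLFTest with robust estimates) and Benjamini-Hochberg adjustment at a threshold of 0.05. Genes within 1.5-fold have a 95% interval wholly inside that bound. The script was tested on simulated data. Alternatives were DESeq2 1.42.0, limma-voom 3.58.1 with quality weights, RLE and upper-quartile factors, other filters on low counts (including a mean of 1 CPM), all 16 libraries in 1 fit, a test for a change of over 1.5-fold, removal of Rn45s and Lars2, and each mouse left out in turn. Leaving out mice 29 and 143 together was chosen after the data were seen. The 29 gene lists and 13 marker lists, the tests and the comparison itself were chosen with earlier results of these data known. Named genes are 12 per direction with the largest change among called genes with at least 5 CPM and no overlap. Others are the 3 of smallest p in each list, the chosen set of study genes and 8 with at least 100 CPM. Later additions are named as such. Of 764 listed symbols 756 were found, 9 by a synonym. Depth was 19218230 to 32436573 counts per library, and it limits low-level genes. P-values measure the spread between mice. Gene positions and promoters are from RefSeq (GRCm38.p6). Set tests were not made.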

Additional observations from a re-analysis of the deposited data

Results flagged for a closer look

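Among 292 groups of 4 mice tested for a mouse far from the other 3, 30 were above the limit. The limit is passed about 1 time in 20 by independent, normally spread values. These are CPM of genes partly chosen by their p and read in the same mice, so that this rate need not hold here. The mice were 29 (11 values), 143 (8), 144 (6), 22 (3), 24 (1) and 146 (1). All values are in CPM.

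Mouse 29, whose library is rich in ribosomal RNA, was above the rest of FEN-HFD for Enho (10.5, others 4.20 to 5.26), Ccl9 (31.6, others 16.7 to 17.7), Loxl2 (5.65, others 3.38 to 3.49), Lum (8.72, others 5.29 to 5.67), Atp6v0d2 (11.1, others 2.84 to 3.73), Pou2af1 (3.47, others 0.222 to 0.660), Csf3r (8.13, others 1.70 to 2.20), Vldlr (5.75, others 2.31 to 2.59) and Col1a1 (16.2, others 2.74 to 4.10), and below it for Mogat1 (1.29, others 2.55 to 2.77) and Col12a1 (2.68, others 4.37 to 4.48). Mouse 143 was above the rest of the 7-day HFD mice for Marco (36.7, others 8.15 to 11.1), Krt19 (6.66, others 0.595 to 1.05), Gzma (3.44, others 0.506 to 0.753), S100a8 (1.81, others 0.452 to 0.554) and Csf3r (4.73, others 1.73 to 2.14), and below it for Nudt7 (775, others 950.3 to 958), Gldc (92.2, others 125 to 129.7) and Ndufv1 (149, others 195 to 198). Mouse 144 was above the rest for Cdh1 (83.6, others 50.5 to 55.7), Gys2 (505, others 318 to 339), Igfbp1 (131, others 17.4 to 36.5), Eln (3.35, others 1.58 to 1.81) and Ctgf (4.28, others 2.23 to 2.49), and below for Cyp2c37 (112, others 191 to 205). Mouse 146 was above the rest for Cyp2b9 (2.75, others 0.552 to 0.646). In FEN-HFD, mouse 22 was above the rest for Cyp39a1 (5.67, others 2.97 to 3.41) and below for Agpat9 (12.3, others 14.9 to 15.4) and Mx2 (5.96, others 6.503 to 6.555), and mouse 24 was above for Meg3 (6.74, others 4.05 to 4.46).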

How the results depend on the processing

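The counts of called genes (186 higher, 71 lower) moved with the test and the mice, and the direction did not change for a called named gene. DESeq2 gave 351 higher and 199 lower, limma-voom with quality weights 453 and 263, all 16 libraries in 1 fit 107 lower, testing against 1.5-fold in place of no change 60 and 8, and leaving out mice 29 and 143 together (chosen after the data were seen) 323 and 214, of which 176 higher and 64 lower were among the 186 and 71. Leaving out 1 mouse gave 89 to 254 higher and 18 to 97 lower, lowest without mouse 21 and highest without mouse 29. Higher genes made up 72.4% of calls, 63.8% with DESeq2, 63.3% with limma-voom, 88.2% with the 1.5-fold test and 60.1% without both mice. Other filters, scalings and the removal of Rn45s and Lars2 kept the counts within 1.5 times. Genes within 1.5-fold came to 8206 with both mice left out. The values that changed sign were all of genes not called. Over the fits with 1 mouse left out, the lowest and highest log2 fold changes were -1.81 and 0.12 for Gzma and -0.22 and 0.77 for Cd2. They were -0.39 and 1.43 for Pou2af1, -0.28 and 1.65 for S100a9, and -0.28 and 1.25 for S100a8. For Csf3r they were -0.47 and 0.72, and for Col1a1 -0.92 and 0.24. The sign changed without mouse 143 for Gzma, without mouse 29 for the next 5, and for Col1a1 without mice 21, 22, 24 and 143 (0.22, 0.24, 0.14 and 0.17). Under limma-voom Pou2af1 was -0.25, S100a8 -0.20 and Csf3r -0.13. Csf3r was -0.044 without both mice. Col1a1 was 0.021 with DESeq2 and 0.0038 with upper-quartile factors. The cause was not tested. No paired analysis was possible because the groups share no mouse numbers. Depth limits genes of a few reads, such as Timp1.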

Other observations

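Targets of p53 were read from a list of 27 genes chosen after the data were seen. Of 24 tested, 5 were higher and 0 lower, 21 had a log2 fold change above 0, and 6 had FEN-HFD mice all above the 7-day mice. Over all genes tested, 1.43% were higher and 0.548% lower, and the median log2 fold change was -0.0044. Groups did not overlap, in either direction, for 7.74% of all genes tested. The 5 higher members were Cdkn1a (log2 fold change 2.20, adjusted p = 0.024), Eda2r (log2 fold change 2.28, adjusted p = 0.00524), Phlda3 (log2 fold change 1.64, adjusted p = 0.00452), Ddb2 (log2 fold change 1.23, adjusted p = 0.00431) and Aen (log2 fold change 0.56, adjusted p = 0.031). Mdm2, the inhibitor of p53 that it induces, was at 19.5 to 25.6 against 16.4 to 23.7 CPM and was not called (log2 fold change 0.28, adjusted p = 0.49). Ccng1 (log2 fold change 0.67, adjusted p = 0.148) was called without mouse 29 (log2 fold change 0.84, adjusted p = 0.00604). These values are a description and no test of the list.

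Without mouse 29, 76 higher and 35 lower genes were called that were not called with it. Among them Slc39a4, a zinc importer, was at -1.80 on the log2 scale (adjusted p = 3.99e-05), against -1.31 (adjusted p = 0.112) with it, and Angptl4, a lipase inhibitor, 0.76 (adjusted p = 0.0200) against 0.64 (adjusted p = 0.11). These genes were chosen after their values were seen.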
